A study of Mus musculus with 7 samples.

Results

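The m6A reader and eraser genes were taken as a fixed list of 10 genes, 8 readers and 2 erasers, and were looked up by gene symbol, older symbols included, in the m6A peak lists of muscle and of C2C12 myoblasts. The list was chosen with earlier results of these data known. Of these 10 genes, 4 had a peak in the muscle list and 5 had a peak in the C2C12 list, against 16.9% and 17.6% of 21900 annotated protein-coding genes. Without the muscle peaks below the median fold enrichment, 1 of the 4 genes (Ythdc1) was left in muscle. The share of all protein-coding genes left by this cut is not given here, and the 16.9% does not apply to it. All listed members stood under their current symbol. Fto and Alkbh5 were in both lists, and Ythdc2, Igf2bp1 and Igf2bp3 were in neither, like 72.8% of all protein-coding genes.

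m6A MeRIP-Seq uses an antibody to N6-methyladenosine to pull down pieces of mRNA, and a peak is a place where the pulled-down reads (IP) exceed those of the starting RNA (input). For muscle, 1 IP and 1 input library were made from METTL3 cKO mice (Pax7CreERT2; METTL3 flox/flox) and 1 of each from CTL mice (Pax7CreERT2; METTL3 wt/wt). All mice were on the C57BL/6 background, had received tamoxifen, and were sampled at day 2 after cardiotoxin (CTX), a toxin that destroys muscle fibers, was injected into the tibialis anterior. Pax7 drives the Cre recombinase in muscle stem cells, so other cells of the muscle keep METTL3. The age and number of mice behind a library are not given in the sources used here. For C2C12, a mouse myoblast line, there were 2 IP libraries and 1 input library. The labels give the genotype of both C2C12 IP libraries as a knockout and that of the input as normal, while the text of the study names no knockdown for this experiment, and these libraries are called C2C12 here. Whether the C2C12 cells were dividing or differentiating is not given for single libraries.

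The muscle list holds 5412 peaks, with 1 fold enrichment of IP over input per peak for all 4 libraries together. It holds those peaks that passed the authors' differential test between the genotypes, so a gene without a listed peak may still carry m6A. The C2C12 list holds 5433 peaks with positions and annotation, and no peak heights. Read counts are in neither list and the depth of the libraries is unknown. With 1 library of each kind per genotype, no test between genotypes was made. Of 23 marker genes of muscle and its resident cells, 10 had a peak in muscle (16.9% of all protein-coding genes) and 6 in C2C12 (17.6%), the latter all from the myogenic and fibroblast lists. The muscle stem cell and myogenic markers Pax7, Myod1, Myog and Des had a muscle peak, and Myf5 had none. The labels call the muscle samples muscle stem cells. Of the markers of other cells, 2 of 6 leukocyte genes (Ptprc and Itgam), 1 of 5 fiber genes (Ttn) and 1 of 3 endothelial genes (Cdh5) were in the muscle list, and none of these was in the C2C12 list. No muscle peak was listed for the leukocyte genes Adgre1, Cd68, Lyz2 and Csf1r, the fiber genes Acta1, Ckm, Myh1 and Myh4 or the endothelial genes Pecam1 and Kdr. Of 4 fibroblast genes, 2 were in the muscle list and 3 in the C2C12 list, so these do not set other cells apart from myoblasts. By highest fold enrichment, Pax7 (39.0), Myod1 (13.5), Cdh5 (155) and the fibroblast gene Pdgfra (49.7) stood above the median of all muscle peaks, 12.9. Myog (6.82), Des (2.12), Ptprc (3.28), Itgam (2.81), Ttn (8.13) and the fibroblast gene Col1a1 (3.52) stood below it. The text of the study speaks both of m6A targets in muscle stem cells and of regenerating muscle, so the cell content of these samples is not settled here. If they were whole muscle, m6A on a transcript in stem cells and in other cells cannot be told apart. Mettl3 itself had 0 peaks in both lists.

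m6A is written on mRNA by the METTL3 and METTL14 complex, mostly near stop codons and in long exons, and it acts largely through proteins that bind it. The YTH domain proteins bind the modified base directly, and the IGF2BP proteins bind modified mRNAs and stabilize them. FTO and ALKBH5 are dioxygenases that remove the methyl group. The mRNAs of this machinery can carry m6A themselves, and the data below concern the peaks on these mRNAs and not the levels of the proteins.

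The YTHDF readers were listed in C2C12 and not in muscle. YTHDF1 promotes translation of modified mRNAs, YTHDF2 brings them to the decay machinery, and YTHDF3 works with both. All 3 of these genes had a C2C12 peak, against 17.6% of all protein-coding genes, and 0 of 3 had a listed muscle peak, against 16.9%. That muscle share corresponds to fewer than 1 gene of 3, so the absence in muscle does not set these readers apart from other genes. Muscle peaks that did not pass the authors' differential test are also not listed. Ythdf1 had 3 peaks, all in coding exons, whose centres lay 9189, 9641 and 10003 bp from the transcription start site (TSS). These peaks were 430, 246 and 259 bp long and formed a run of 1158 bp with gaps of 109 and 114 bp. At least 3 peaks were listed for 285 genes, which is 7.18% of the genes in the C2C12 list. Ythdf2 had 2 coding exon peaks, centred 6882 and 7600 bp from the TSS, with lengths of 211 and 843 bp. The longer of these was at percentile 97.2 of all C2C12 peaks by length, and the gap between them was 191 bp. The peaks of Ythdf1 and Ythdf2 thus lay closely side by side. Among all neighbouring C2C12 peaks of a gene, 18.3% were at most 200 bp apart and the median gap was 867 bp. Ythdf3 had 1 coding exon peak of 526 bp, centred 21186 bp from the TSS.

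**Figure D1:**
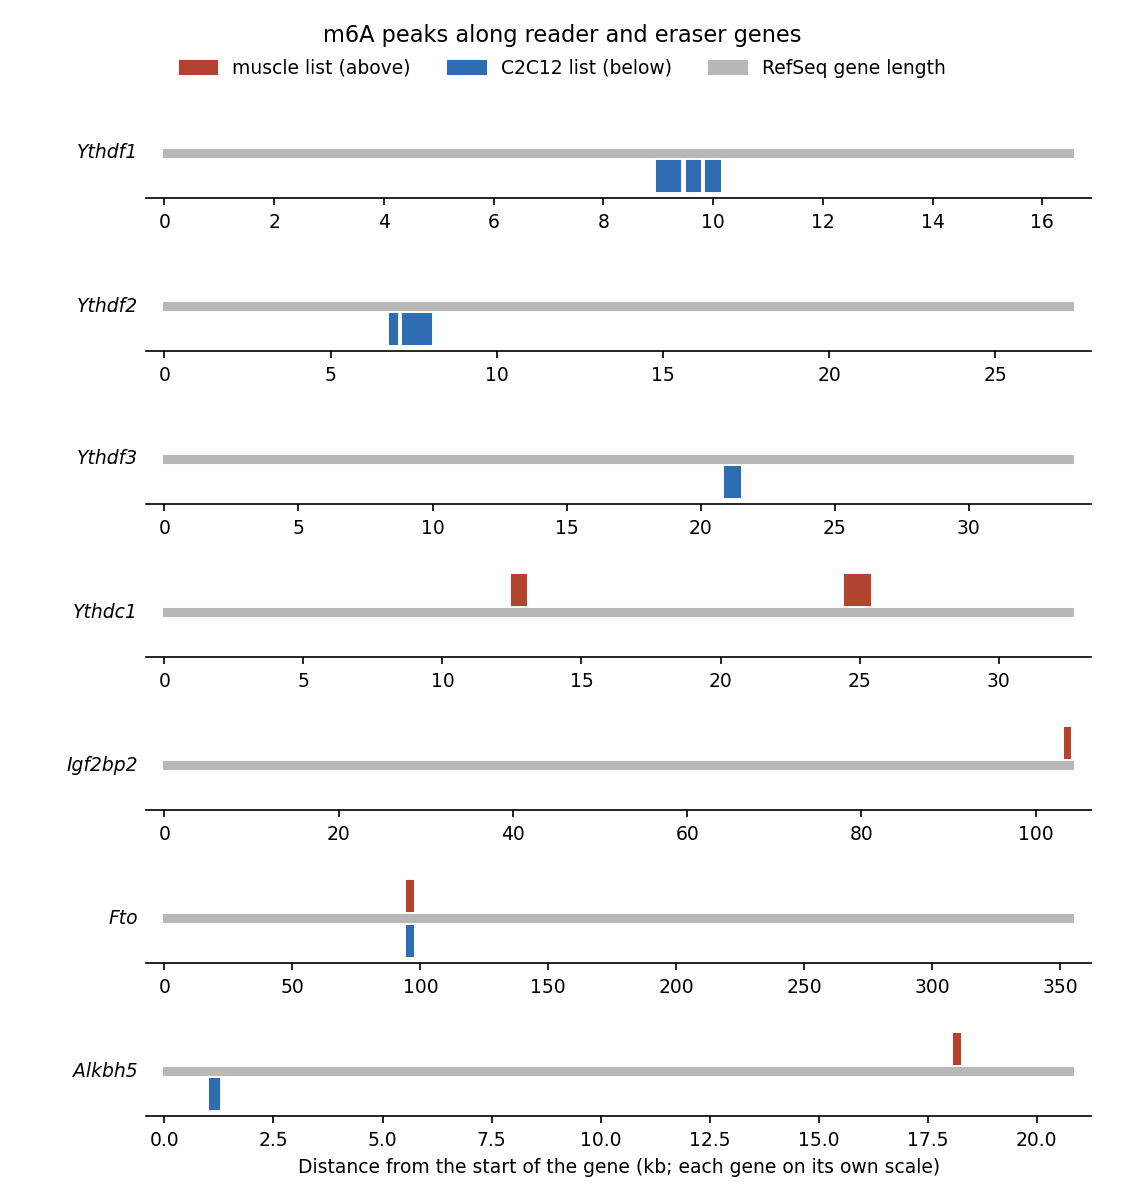
Peaks of the 7 reader and eraser genes with at least 1 listed peak, by distance from the start of the gene in kb, with muscle peaks above and C2C12 peaks below a grey bar of the RefSeq gene length. Each gene has its own scale and short peaks are widened so that they can be seen. The Fto peaks of both lists stand at about the same distance from the start used here, at this scale, and the Alkbh5 peaks stand near opposite ends of the gene.

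Ranked by the length that the peaks of a gene covered, Ythdf2 had rank 249 of 3969 genes in C2C12 with 1054 bp, and Ythdf1 had rank 342 with 935 bp. Ythdf3 had rank 1149 with 526 bp, Fto rank 1721 with 394 bp and Alkbh5 rank 3584 with 207 bp. In this order by length the YTHDF readers stood above the erasers. Covered length does not measure the degree of methylation, since the C2C12 list holds no peak heights. Since the list holds 1 set of peaks for both IP libraries, the spread of these lengths between libraries was not measured. All 8 C2C12 peaks of the readers and erasers were annotated to coding exons, a class that took 52.6% of all C2C12 peaks. The peaks of a gene are not independent of each other. Counted by gene, all 5 listed members had coding exon peaks alone, as had 46.6% of all listed genes.

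**Figure D2:**
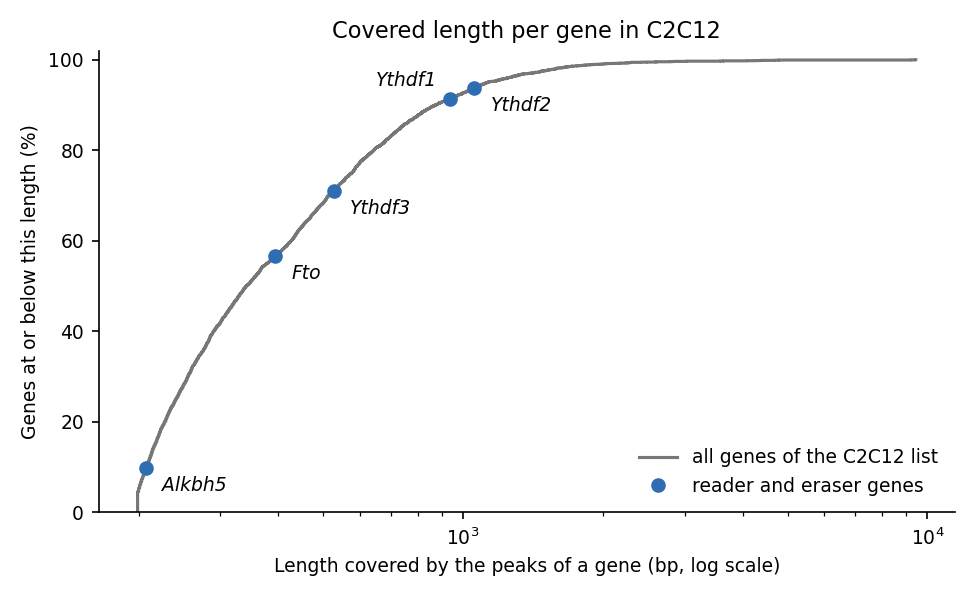
Length covered by the peaks of each gene in C2C12 in bp, on a log scale, against the percent of genes at or below that length. The grey line holds all 3969 genes and the points are the 5 listed members, from Alkbh5 at percentile 9.72 to Ythdf2 at percentile 93.8.

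Of the YTHDC and IGF2BP readers, 2 of 5 genes were listed in muscle and 0 of 5 in C2C12, where the background shares of 16.9% and 17.6% correspond to about 1 gene of 5. Lists from different samples and procedures were compared here, and the difference between them was not tested. YTHDC1 is the nuclear YTH reader, which acts in splicing and export of modified RNA. Its gene had 2 muscle peaks that differed widely in fold enrichment. The stronger one lay on chromosome 5 from 86828727 to 86829625 of mm10, on the plus strand, and was 899 bp long. Its fold enrichment of 297 had rank 257 of 5412, where the median of all peaks was 12.9. Its p-value in the deposited table was 1e-110. Among the 72 peaks with a fold enrichment within 10% of 297, 63 had a p-value as small or smaller, this peak included. In the stronger peak, 5 GGAC sites, the core of the m6A consensus sequence, were listed. At least 5 sites were listed in 18.7% of all muscle peaks, whose median length of 360 bp was below that of this peak. The site nearest to the centre lay 5.5 bp from it.

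The weaker Ythdc1 peak lay from 86816757 to 86817260, in blocks of 36 and 354 bp with a gap of 114 bp between them. Its fold enrichment of 1.51 had rank 5362 of 5412, its p-value was 1e-108, and no GGAC site was listed in it, whereas 81.8% of the 55 muscle peaks of that length held a site. For peaks of several blocks, such as this one, the listed site positions were less reliable, with GGAC at 21 of 35 sites that could be checked. The ratio of the strongest to the weakest peak within Ythdc1 was 197, a value reached by 7 of the 997 genes with more than 1 muscle peak, with a median ratio of 4.21. The peaks of Ythdc1 thus had similar p-values and very different fold enrichments. The long noncoding RNA gene Gm43055 has a peak on the same strand from 86816758 to 86817106 with a fold enrichment of 1.8. It lies over the weaker Ythdc1 peak, so the reads there cannot be assigned to either gene with certainty. Over the spans of all 10 members, this was the single peak listed under another gene.

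IGF2BP2 stabilizes modified mRNAs and is the IGF2BP protein known from adult tissues, while IGF2BP1 and IGF2BP3 are known mainly from fetal tissue and tumors. Igf2bp2 had 1 muscle peak of 301 bp, on the minus strand of chromosome 16 from 22059518 to 22059818. It had a fold enrichment of 8.77 (rank 3252), a p-value of 1e-10 and 1 GGAC site, which lay 26.5 bp from its centre. The peak ended 509 bp before the 3′ end of the RefSeq gene, whose length is 104291 bp. The deposited table gives it the class exon, as it does for both Ythdc1 peaks. This class took 10.5% of the muscle peaks of protein-coding genes, against 50.5% for the 3′UTR and 33.5% for the coding sequence (CDS). Among the 540 exon peaks of protein-coding genes, the stronger Ythdc1 peak had rank 35, the Igf2bp2 peak rank 328 and the weaker Ythdc1 peak rank 535. No listed peak was found for Ythdc2, an RNA helicase with a YTH domain best known from meiosis.

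**Figure D3:**
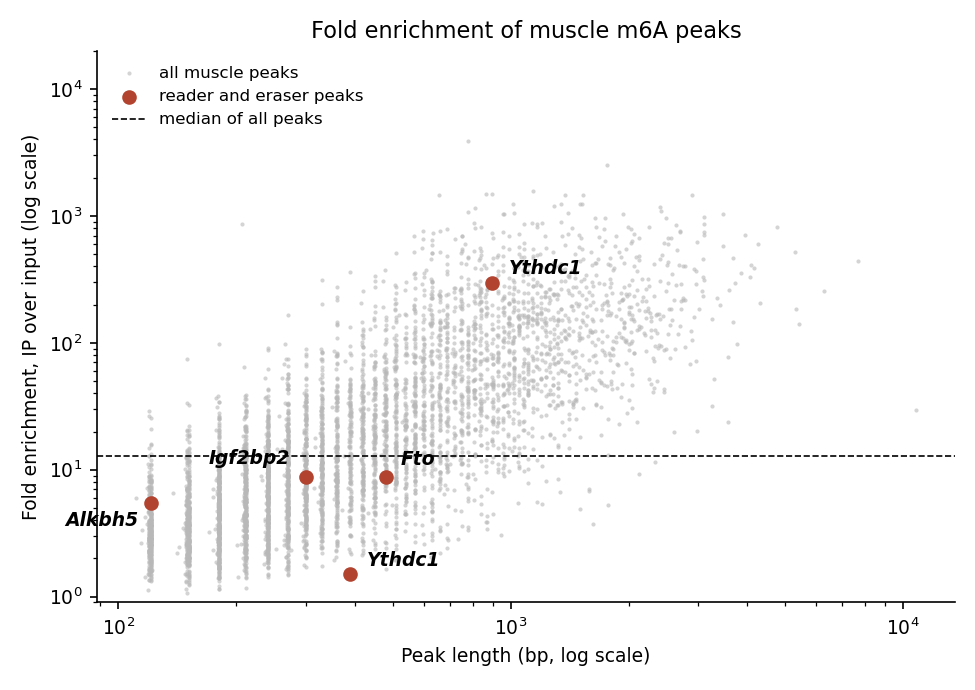
Fold enrichment of IP over input against peak length for all 5412 muscle peaks (grey) and the 5 reader and eraser peaks (red), both axes on a log scale, with the median of 12.9 as a dashed line. The stronger Ythdc1 peak stands at 297, and the other 4 member peaks stand below the median, from 1.51 to 8.77.

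Both erasers were listed in muscle and in C2C12. Being in both lists was found for 7.31% of all protein-coding genes, and the genes shared by the lists made up 41.5% of the protein-coding genes of C2C12 and 43.2% of those of muscle. FTO was the first m6A demethylase described and also acts on other methylated adenines, and ALKBH5 is a nuclear m6A demethylase. The Fto muscle peak lay in the CDS on chromosome 8 from 91409286 to 91409765 of mm10, was 480 bp long and held 3 GGAC sites. Its fold enrichment of 8.69 had rank 3276 of all muscle peaks and rank 1220 of 1722 CDS peaks, whose median was 26.7. Its p-value was 1.6e-96. Among the 299 peaks with a fold enrichment within 10% of this value, 36 had a p-value as small or smaller, the Fto peak included. For Igf2bp2, with nearly the same fold enrichment, this number was 195 of 312 peaks. For the weaker Ythdc1 peak it was 11 of 68. The Fto peak therefore had a small p-value for its fold enrichment, which was below the CDS median, and it was not alone in this among the members. It was also longer than those 299 peaks, whose median length was 299 bp, and the part of length was not tested.

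The submitters' processing notes name mm10 for all samples, but 9.42% of the C2C12 peaks overlap the mm10 span of their gene, against 98.6% of the muscle peaks. The C2C12 positions were therefore not treated as mm10 positions. Peaks were compared between the lists by their distance from the start of the gene and not by position. The centre of the muscle peak of Fto lay 96000 bp from the RefSeq start, and that of the C2C12 peak, which was also in a coding exon and 394 bp long, lay 96002 bp from the TSS. The span of the C2C12 peak, from 95805 to 96199 bp, fell inside that of the muscle peak, and it took in all 3 GGAC sites, at 95815, 95875 and 96139 bp. Of 1014 genes in both lists with a single RefSeq start, 62.3% had peaks that overlapped by this measure. A centre gap of at most 2 bp was found for 18 of them (1.78%), and the median gap was 246 bp. The value rests on the annotated start, and with the outermost start of the RefSeq gene span the Fto gap was 156 bp, with an overlap of 281 bp. With that start, the C2C12 span no longer fell wholly inside the muscle span, and it did not take in all 3 GGAC sites.

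**Figure D4:**
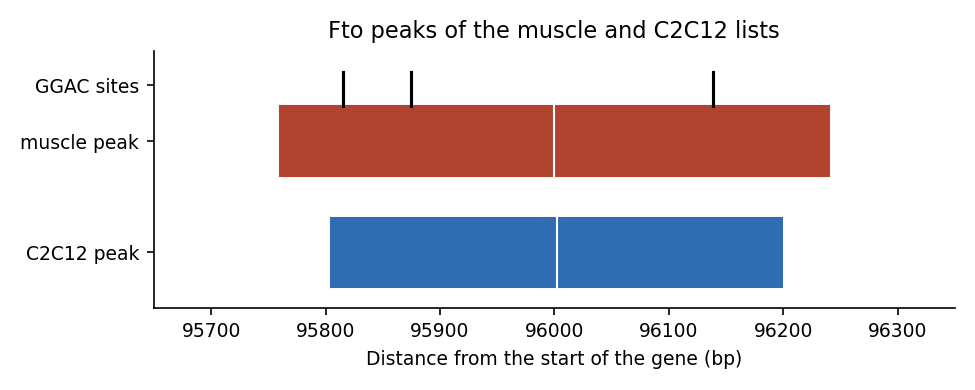
Spans of the Fto peaks in bp from the start of the gene, with the muscle peak (480 bp) above, the C2C12 peak (394 bp) below, white lines at their centres and black ticks at the 3 GGAC sites listed for muscle. The centres stand at 96000 and 96002 bp.

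The Alkbh5 peaks lay far apart. The muscle peak was in the 3′UTR, on chromosome 11 from 60555788 to 60555908, centred 18164.5 bp from the RefSeq start of a gene of 20830 bp. The C2C12 peak was in a coding exon, centred 1142 bp from the TSS, and the centres were 17022.5 bp apart. The muscle peak was 121 bp long, with a fold enrichment of 5.5 (rank 3933), a p-value of 1.9e-07 and no GGAC site listed. A site was listed in 26.7% of the 187 muscle peaks of that length. Among 2592 peaks in the 3′UTR, whose median was 9.94, it had rank 1780. A centre gap of at most that of Alkbh5 was found for 918 of the 1014 compared genes (90.5%). Fto and Alkbh5 thus shared their presence in both lists. By distance from the start, the listed peaks overlapped for Fto, as for 62.3% of the compared genes, and not for Alkbh5. How closely the Fto centres met depended on the start used. Muscle peaks that did not pass the authors' differential test are not listed, so a shared place on Alkbh5 could be missed.

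Across the members, 3 of 5 muscle peaks held a GGAC site, which is 60.0% (exact 95% binomial interval 14.7 to 94.7, for counting error only), against 70.6% of all muscle peaks. The member peaks with sites held 5.56 (Ythdc1), 6.25 (Fto) and 3.32 (Igf2bp2) sites per 1000 bp. The number of peaks is too small to set the members apart from other peaks.

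The other genes of the pathway were taken from fixed lists, which were chosen with earlier results of these data known. Of the 8 genes of the writer complex, 3 had a muscle peak and 6 a C2C12 peak, where 16.9% and 17.6% of all protein-coding genes did. Wtap, which anchors the methyltransferase in nuclear speckles, and Rbm15 and Rbm15b, which bring the complex to its targets, were in both lists. Rbm15 had the highest fold enrichment of these lists at 1040 (rank 21), followed by Rbm15b at 702 (rank 61) and Alkbh1 at 76.8 (rank 1037). These values stood above the 297 of Ythdc1, apart from that of Alkbh1. Of the 7 other AlkB family genes, Alkbh1 and Alkbh8 had a muscle peak and 0 had a C2C12 peak, where the background of 17.6% corresponds to about 1 gene. Of 10 other m6A-associated RNA-binding protein genes, 7 had a muscle peak and 4 a C2C12 peak, and 2 of the 7 were left without the muscle peaks below the median fold enrichment. For that cut, the share of all protein-coding genes is not given here. Hnrnpc, Prrc2a and Eif3a were in both lists, with fold enrichments of 5.79, 23.8 and 5.54. Of 11 partners and effectors of the readers, 4 had a muscle peak and 2 a C2C12 peak, and Ddx6, a helicase of mRNA decay, was in both lists with a fold enrichment of 43.1. In C2C12 the share for the partners and effectors, 18.2%, was near the 17.6% of all protein-coding genes. The background counts all protein-coding genes, expressed in these samples or not, and expression was not analysed here.

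**Figure D5:**
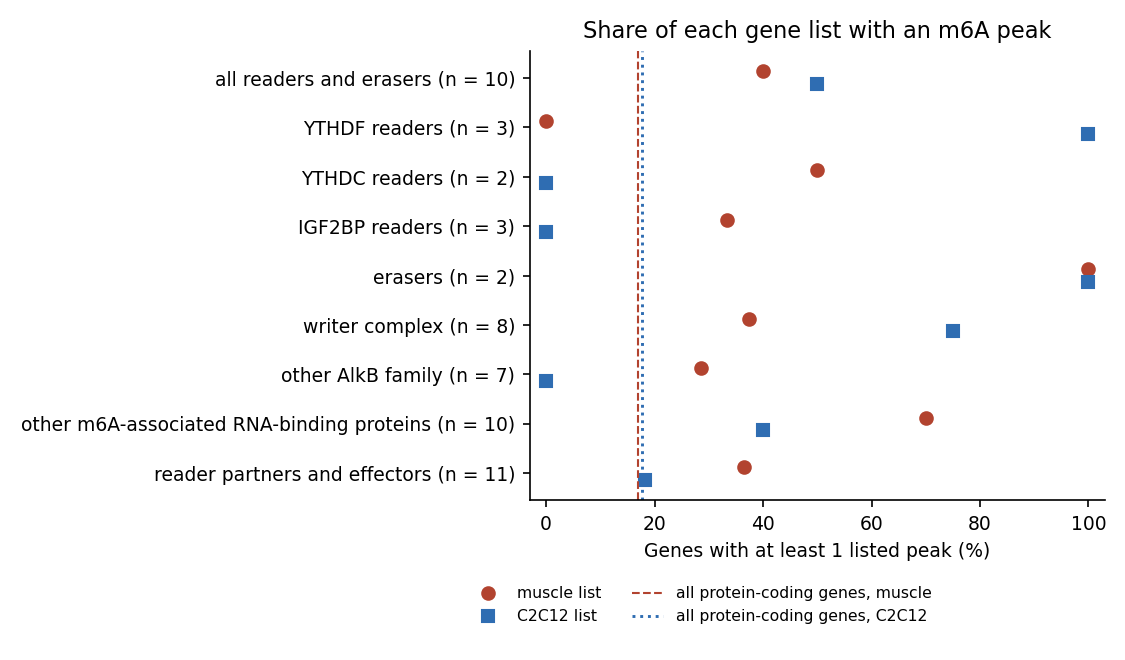
Percent of the genes of each list with at least 1 peak in muscle (red circles) and in C2C12 (blue squares), with n the number of genes in the list and vertical lines at 16.9% and 17.6% for all protein-coding genes. The YTHDF readers (n = 3) stand at 0% in muscle and 100% in C2C12, and the erasers (n = 2) at 100% in both.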

How the data were processed

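m6A MeRIP-Seq of muscle (4 libraries) and C2C12 (3 libraries) was analysed from 1 deposited peak list each, with groups taken from the sample labels. The submitters' processing notes name TopHat, MACS2 and mm10, and the column names of the muscle list are those of the R package exomePeak. The authors deposited the fold enrichment, which is the ratio of IP to input, and the p-value of each muscle peak. The log10 copies of the p-value and FDR were damaged by a spreadsheet and not used. The log2 fold, p-value and FDR of the authors' differential test between genotypes are their own comparison and were not used. The number of per-sample columns left out was 0. Without counts or depth, no limit of detection was computed.

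Genes were matched to RefSeq GRCm38 through current symbols and through older ones that point to 1 gene (3808 of 3980 gene names in muscle and 3954 of 3970 in C2C12). Positions are 1-based. The gene start was that of the RefSeq promoter table for genes with 1 entry. A GGAC site stood at the listed position in 68 of 68 sites of single-block peaks that fell in promoter sequence. No peak sequence was read, since no genome was used here. Intervals are exact binomial intervals. No statistical test was made. The code that compares spans was checked on simulated peaks. Python 3.11.15, pandas 2.3.3, numpy 2.4.6, scipy 1.17.1 and matplotlib 3.10.9 were used.

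The named genes were all members and, from the pathway lists, the genes in both lists and the 3 highest in muscle. The members and lists were chosen with earlier results of these data known.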

Additional observations from a re-analysis of the deposited data

How the results depend on the processing

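Of 27 alternatives, 18 left the value within 1.5 times of the reported one, or within its interval for the shares in muscle. These include matching by current symbol or by RefSeq transcript, which kept 4 members in muscle and 5 in C2C12. Several of the 18 could not have moved. Igf2bp2, Fto and Alkbh5 have 1 muscle peak each, so the mean and the longest peak return the same value. No member was listed under an older symbol, and every C2C12 peak of a member was in a coding exon. The strongest Ythdc1 peak is itself above the median. The number 18 is therefore no measure of how stable the results are. With the weaker muscle peaks, those below the median fold enrichment, left out, 1 member (Ythdc1) was listed in muscle and 0 in both lists, the GGAC share became 100% of 1 peak, 1 other AlkB family gene was left of 2, and 2 other m6A-associated RNA-binding protein genes were left of 7. These counts have no share of all protein-coding genes at the same cut beside them. Dropping the class exon left 2 members in muscle. The mean of its peaks gave Ythdc1 a fold enrichment of 149 in place of 297. The gap between the Fto peaks was 156 bp from the start of the RefSeq gene span and 0 bp between nearer edges. The alternatives for Fto and for the overlap by distance were chosen after seeing the data. DRACH in place of GGAC was not run, since no genome was used here. No paired analysis was possible because the lists hold no values per library. The effect of depth, which is not known here, was not measured.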

Other observations

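The GGAC positions in the muscle list were set against sequence separately for peaks of 1 and of several blocks. In peaks of a single block, the letters GGAC stood at 68 of 68 listed sites that fell in RefSeq promoter sequence. In peaks of several blocks this held for 21 of 35 sites. Of the member peaks with a listed site, each has a single block.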
